A study of Mus musculus with 4 samples.

Results

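Tbx2, Tbx3, Tbx5, Tbx18, Tbx20, Shox2 and Irx3 are transcription factor genes that pattern the atria, the sinus node and the conduction system of the heart. Their mRNA was measured in the HL-1 line, which derives from mouse atrial muscle and goes on contracting in the dish, by every probe set annotated to exactly 1 of these 7 symbols. These 7 of the 18193 genes with a symbol of their own on the array had 16 such probe sets, of 45037 that were not manufacturer's controls: 5 for Tbx3, 3 for Tbx20, 2 each for Tbx5, Tbx18 and Shox2, and 1 each for Tbx2 and Irx3. The stimulated group held 2 samples of cells paced electrically for 24 h at 300 beats per minute, by the labels a rate 1.5 to 2 times that of unpaced cells. The control group held 2 samples of cells that beat spontaneously, without stimulation. Both groups were the same line grown to confluence in Claycomb medium, and each sample was hybridised to 1 Affymetrix array. HL-1 cells are an immortalised line that divides in culture, descended from a single atrial tumour lineage, so the 4 arrays share 1 genetic source. No samples were stimulated at the control rate, so the rate and the electrical stimulation cannot be told apart. The titles of the 2 stimulated samples call them exp 1 and exp 2, and the titles of the control samples carry no such number. They do not say whether the samples of a group came from separate cultures. The p-values therefore cover only the spread seen among these 4 arrays, some of which may be technical.

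T-box proteins bind DNA through a conserved domain named after the founding gene of the family. In the developing mouse heart Tbx5, with its partners Nkx2-5 and Gata4, switches on genes of working chamber muscle such as Nppa and Gja5, while Tbx2 and Tbx3 occupy related sites and repress such genes where slowly conducting or pacemaker tissue forms. Tbx20 acts in the working muscle and limits Tbx2 in the embryonic chambers, Tbx18 and Shox2 are needed to form the sinus node, and Irx3 shapes fast conduction in the ventricular conduction system. In people TBX5 mutations cause Holt-Oram syndrome, a disorder of heart septation and limb that can include abnormal rhythm.

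Tbx5, Tbx20 and Tbx3 were lower in the stimulated cells, by 1.84-fold to 3.48-fold on the 5 probe sets that passed the test. No probe set of the 7 genes passed the test upward. Tbx18, Shox2 and Irx3 had no probe set that passed, and Tbx2 lay below the level at which probe sets were tested. Values are RMA values on the log2 scale, in which a difference of 1 is a doubling, and a probe set was tested if its mean over the 4 arrays was at least 4.39 (the 40th percentile). This left 14 of the 16 probe sets, from 6 of the 7 genes. The 5 probe sets that fell were 35.7% of these 14, and 3.85% of the 27000 probe sets tested passed in either direction (1.38% lower and 2.47% higher). The test was limma, with Benjamini-Hochberg adjustment over all 27000 and a threshold of 0.05.

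**Figure D1:**
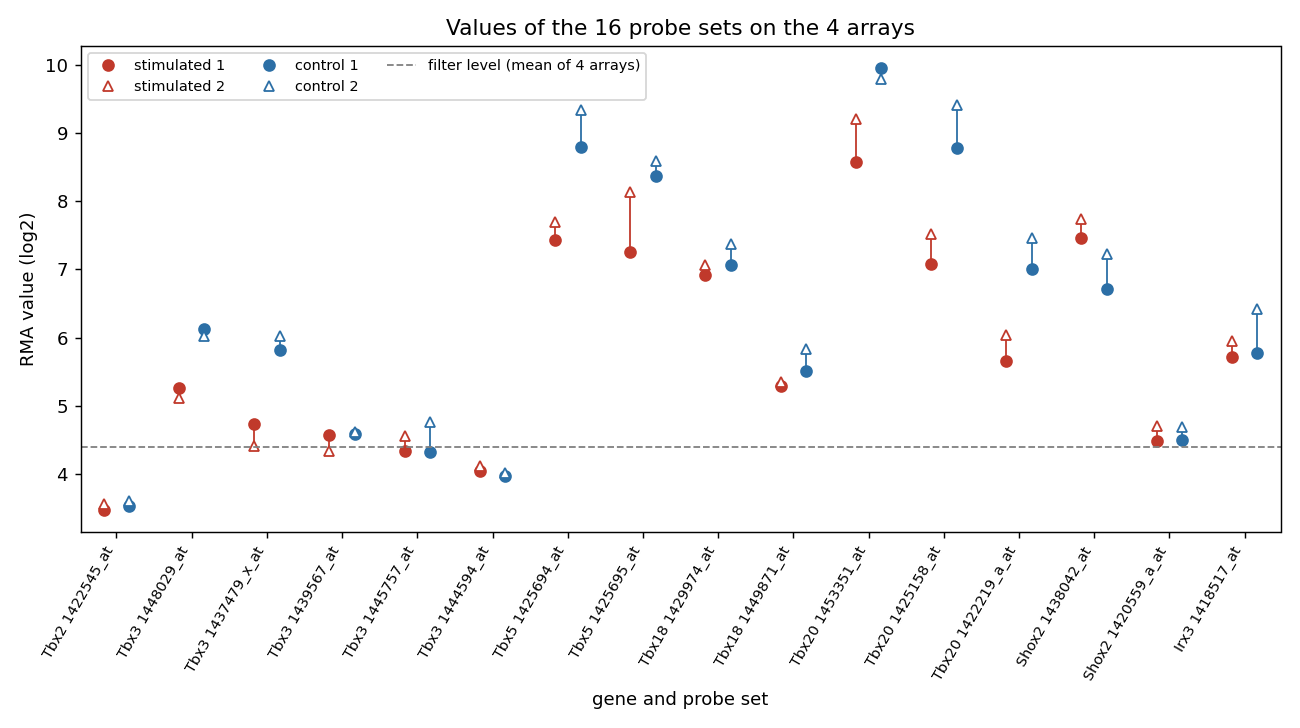
RMA values (log2 scale, vertical axis) of the 16 probe sets on the 2 stimulated arrays (red, left) and the 2 control arrays (blue, right), with a line joining the 2 arrays of a group and a dashed line at the filter level of 4.39. Levels can be compared between arrays within a probe set, not between probe sets, and the red points lie clear below the blue ones for Tbx5 1425694_at, all 3 Tbx20 probe sets and 2 of the 5 Tbx3 probe sets.

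Tbx20, a T-box factor of working heart muscle, had the most negative change of any probe set of the 7 genes, though on its brightest probe set Tbx20 changed by less than Tbx5 did (-0.98 against -1.51). Its probe set 1425158_at read 7.07 and 7.52 in stimulated cells, against 8.78 and 9.41 in control cells. Both stimulated arrays lay below both control arrays, by 1.26 between the closest pair. The mean was 7.30 ± 0.31 in stimulated and 9.10 ± 0.45 in control cells (SD, n = 2 each), a fall of 1.80 ± 0.25 (SE) or 3.48-fold (adjusted p = 0.0309). Only 25 of the 27000 tested probe sets had a more negative change. On 1422219_a_at, whose probes match more than 1 transcript form of the gene, Tbx20 read 5.65 and 6.04 in stimulated cells and 7.01 and 7.46 in control cells. This was a fall of 1.39 ± 0.21 (2.61-fold, adjusted p = 0.0342). The third probe set, 1453351_at, read 8.58 and 9.21 in stimulated cells and 9.95 and 9.80 in control cells. The groups did not overlap there either, but the stimulated arrays differed by 0.63, and the change of -0.98 ± 0.23 did not pass (adjusted p = 0.0699, 95% interval -1.53 to -0.43). All 3 Tbx20 probe sets thus read lower on both stimulated arrays, and 2 of the 3 passed.

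The start of Tbx20 is shown beside that of Tbx18, because both are T-box genes on chromosome 9, of which Tbx20 passed the test and Tbx18 did not. Each sequence is the RefSeq window (build GRCm38.p6) from 250 bases before to 50 after the start of the gene, read 5′ to 3′ on the minus strand, at chr9:24774254-24774553 for Tbx20 and chr9:87731211-87731510 for Tbx18. Capitals mark matches, on either strand, to the T-box half-site AGGTGTGA, its shorter core GGTGTNA, the GATA motif AGATAA, the NKX2-5 motif CAAGTG and the TATA box TATAAA. The longer half-site contains the core.
Tbx20: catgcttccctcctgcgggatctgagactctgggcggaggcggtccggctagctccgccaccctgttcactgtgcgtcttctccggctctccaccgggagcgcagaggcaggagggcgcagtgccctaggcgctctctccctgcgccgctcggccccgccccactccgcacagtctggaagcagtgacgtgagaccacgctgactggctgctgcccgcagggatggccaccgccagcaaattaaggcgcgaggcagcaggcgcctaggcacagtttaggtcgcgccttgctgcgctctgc
Tbx18: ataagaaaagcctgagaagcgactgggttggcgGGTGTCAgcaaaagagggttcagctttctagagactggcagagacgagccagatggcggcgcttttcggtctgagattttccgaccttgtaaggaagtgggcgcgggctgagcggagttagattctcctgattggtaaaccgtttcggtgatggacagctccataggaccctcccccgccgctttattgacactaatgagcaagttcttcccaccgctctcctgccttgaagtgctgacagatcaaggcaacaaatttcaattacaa
The Tbx18 window held 1 match, to the core of the T-box half-site. The Tbx20 window held 0, which says only that these letters are not in it. Of all 32851 RefSeq promoter windows, 10.2% held the core, 1.28% the full half-site, 11.2% the GATA motif, 13.6% the NKX2-5 motif and 13.6% the TATA box. G and C made up 68.3% of the Tbx20 window and 51.7% of the Tbx18 window, against a median of 52.7% over all windows. Windows were found for 4 of the 7 genes, and those of Shox2 and Irx3 held 1 match and 0 matches. The Shox2 match was to the letters of the TATA box, at position -203 from the start of the gene.

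Tbx5, which activates chamber and conduction genes together with Nkx2-5 and Gata4, fell on 1 of its 2 probe sets. Its brighter probe set, 1425694_at, read 7.43 and 7.69 in stimulated cells, against 8.80 and 9.34 in control cells. The stimulated arrays lay below the control arrays by at least 1.11, and the fall was 1.51 ± 0.21 (SE), or 2.85-fold, with means of 7.56 ± 0.19 and 9.07 ± 0.38 (SD, n = 2 each; adjusted p = 0.0304). Of all tested probe sets, 59 had a more negative change. The other Tbx5 probe set, 1425695_at, read 7.26 and 8.13 in stimulated cells, against 8.37 and 8.59 in control cells. The groups were again apart, by 0.24, but stimulated 2 stood 0.88 above stimulated 1. The change of -0.78 ± 0.29 did not pass (adjusted p = 0.174, 95% interval -1.49 to -0.08). Whether the 2 Tbx5 probe sets differed in their change was not tested.

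Tbx3, a repressor of chamber genes in the sinus and atrioventricular nodes, was measured by 5 probe sets that did not read alike. Its brightest, 1448029_at, read 5.26 and 5.12 in stimulated cells and 6.12 and 6.02 in control cells. The arrays of a group differed by 0.15 in stimulated and 0.10 in control cells, and the fall was 0.88 ± 0.13 or 1.84-fold (adjusted p = 0.0342). On 1437479_x_at, a set in which some probes may also match other transcripts, Tbx3 read 4.74 and 4.41 in stimulated cells and 5.81 and 6.02 in control cells. That was a fall of 1.34 ± 0.17 or 2.54-fold (adjusted p = 0.0268), and both stimulated values lay near the filter level, where RMA compresses differences. The other 3 probe sets read close to that level in all 4 arrays. Probe set 1439567_at read 4.57 and 4.34 in stimulated and 4.59 and 4.61 in control cells (change -0.14 ± 0.14, adjusted p = 0.609). Probe set 1445757_at read 4.33 and 4.55 in stimulated and 4.32 and 4.76 in control cells (change -0.10 ± 0.19, adjusted p = 0.814). Probe set 1444594_at lay below the level for testing, at 4.04 and 4.11 in stimulated and 3.97 and 4.02 in control cells. The fall of Tbx3 therefore rests on the 2 probe sets that read well above the filter level in control cells.

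Tbx2, the closest relative of Tbx3 and likewise a repressor of chamber genes, was measured by 1 probe set. It read 3.47 and 3.56 in stimulated cells, against 3.53 and 3.60 in control cells, and was not tested. The 4 values spanned 0.12 and the groups overlapped, at a level where RMA compresses any difference.

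Tbx18, a factor of the sinus horns and of the epicardium, did not pass on either probe set. On 1429974_at it read 6.92 and 7.07 in stimulated cells and 7.06 and 7.37 in control cells, so that the groups overlapped narrowly. The change was -0.22 ± 0.16 (adjusted p = 0.454), with a 95% interval of -0.61 to 0.16. On 1449871_at it read 5.29 and 5.35 in stimulated cells and 5.51 and 5.83 in control cells, with both stimulated arrays lower. Here the change was -0.35 ± 0.16 (adjusted p = 0.239, 95% interval -0.73 to 0.03). The intervals of both Tbx18 probe sets end short of the point estimates of the 5 probe sets that passed. They overlap the 95% interval of Tbx3 1448029_at, which was -1.21 to -0.55. Whether Tbx18 differed in its change from the genes that fell was not tested.

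Shox2, a homeodomain factor that holds the working muscle programme back in the sinus node, had the only positive change among the 14 tested probe sets. Its probe set 1438042_at read 7.46 and 7.74 in stimulated cells, against 6.72 and 7.22 in control cells. Both stimulated arrays were higher, by 0.23 between the closest pair, and the control arrays differed by 0.51. The difference of 0.63 ± 0.21 did not pass (adjusted p = 0.142, 95% interval 0.12 to 1.14). The other Shox2 probe set, 1420559_a_at, read 4.49 and 4.70 in stimulated and 4.50 and 4.69 in control cells. It lay just above the filter level and changed by -0.0026 ± 0.15 (adjusted p = 0.997). Irx3, an Iroquois homeodomain factor, read 5.72 and 5.95 in stimulated cells and 5.77 and 6.42 in control cells on its single probe set 1418517_at. The groups overlapped and the change was -0.27 ± 0.23 (adjusted p = 0.557, 95% interval -0.84 to 0.31).

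**Figure D2:**
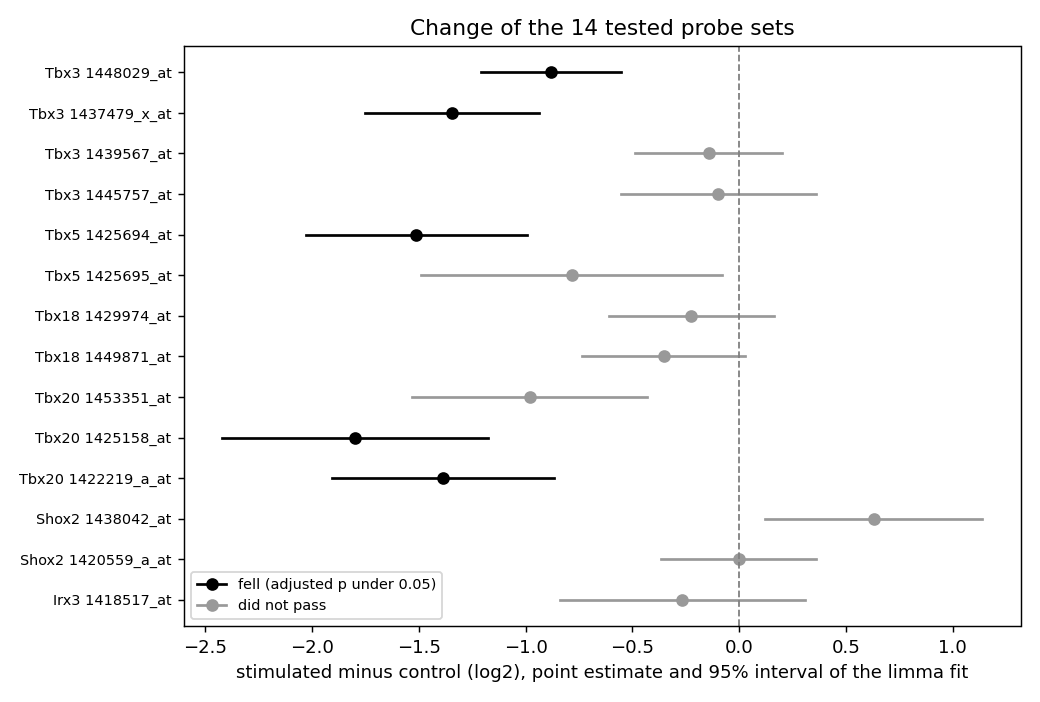
Change (stimulated minus control, log2 scale, horizontal axis) of the 14 tested probe sets, with the 95% interval of the limma fit. The 5 probe sets that fell (black) lie between -1.80 and -0.88, and the other 9 (grey) between -0.98 and 0.63.

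Read together, 13 of the 14 tested probe sets had a negative change, with a median of -0.57, where the median over all 27000 was -0.02 and 53.1% were negative. Both stimulated arrays lay below both control arrays in 9 of the 14, above them in 1 and overlapped them in 4. Among all tested probe sets 28.8% lay below, 25.3% above and in all 54.1% did not overlap. The 14 are not independent, since several measure the same gene. With 2 arrays in each group the smallest two-sided p of an exact permutation test is 0.333, and none was run. The falls rest on all 4 arrays: with any array left out, 0 of the 5 probe sets passed limma's adjusted threshold, though all 5 kept a negative change. In these fits the lone array of a group is assumed to vary like the arrays of the other group. Most of all the probe sets that passed with 4 arrays did not pass in these fits either. Adjusted p for the 5 was 0.0678 to 0.122 without stimulated 1, 0.0658 to 0.0875 without stimulated 2, 0.0776 to 0.165 without control 1 and 0.155 to 0.179 without control 2. Their changes then lay between -2.11 and -0.81.

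**Figure D3:**
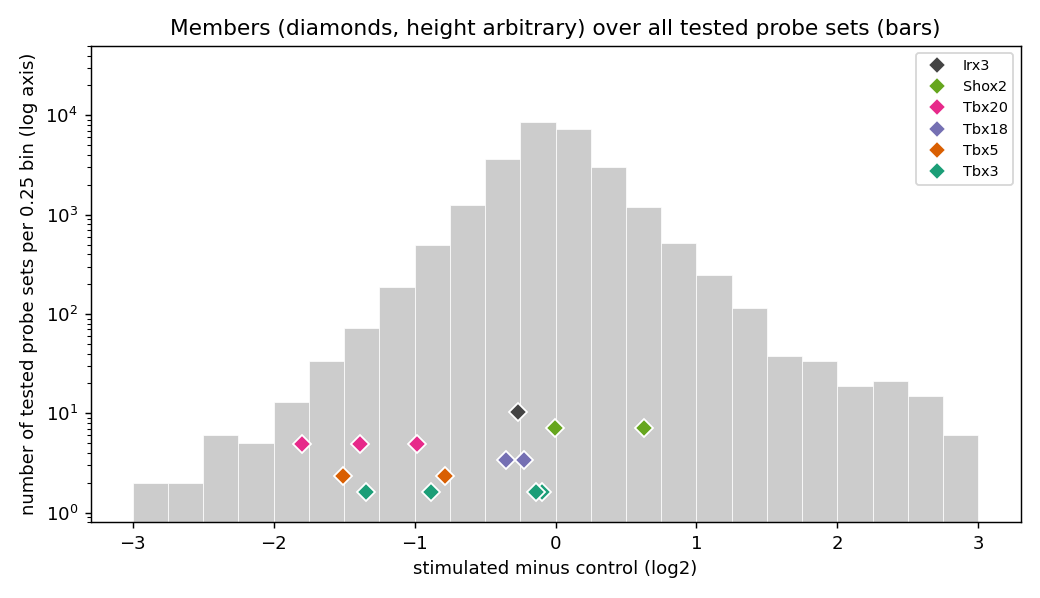
Number of tested probe sets (bars, log axis) by their change (stimulated minus control, log2 scale, bins of 0.25), with the 14 tested probe sets as diamonds coloured by gene at arbitrary heights. Probe sets beyond 3 in either direction are not drawn, and the lowest Tbx20, Tbx5 and Tbx3 diamonds, at -1.80, -1.51 and -1.34, stand over the thin left tail.

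Tbx3 and Tbx5 are next to each other on mouse chromosome 5 in the RefSeq gene table, with no protein-coding gene between them. Neither of the genes flanking this pair passed downward. Med13l, which encodes a Mediator kinase module subunit, changed by -0.02 ± 0.13 (adjusted p = 0.962), and Rbm19, an RNA-binding protein of ribosome assembly, rose by 0.76 ± 0.13 (adjusted p = 0.0406, and 0.103 to 0.216 with 1 array left out). Irx5, which neighbours Irx3 on chromosome 8, read 6.13 and 5.83 in stimulated and 6.11 and 6.09 in control cells and changed by -0.12 ± 0.15 (adjusted p = 0.700).

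The genes most like each factor were those with the smallest root mean square distance over the 4 arrays, after each gene's own mean was taken off, among 12330 tested genes with a gene name. For Tbx5 these were Ccng2, a cyclin G, at a distance of 0.03 and Pfkl, the liver-type phosphofructokinase of glycolysis, at 0.09. For Tbx3 they were Ncapd2, a condensin subunit, and Pif1, a DNA helicase, both at 0.04. Picked for likeness over the same 4 arrays, these 4 genes had to change much as their factor did. Ccng2 fell by 1.52 ± 0.20, Pfkl by 1.50 ± 0.23, Ncapd2 by 0.81 ± 0.14 and Pif1 by 0.86 ± 0.13. As with the factors themselves, none of the 4 passed with any 1 array left out (adjusted p between 0.0643 and 0.194). For the brightest Tbx20 probe set they were Fxyd1, a regulator of the sodium pump, at 0.02 and Fgf12, an intracellular partner of sodium channels, at 0.03, with changes of -0.96 and -1.02 that did not pass (adjusted p = 0.0803 and 0.0560). Tbx18 was nearest to Rnf126 and Usp8, Shox2 to Krt18 and Azin1, and Irx3 to Mplkip and Cdhr3, none of which passed. With 4 arrays of 2 groups such a likeness mostly reflects the change and the gaps between arrays of a group.

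Partners of the T-box factors were counted from a list of 20 cardiac transcription factors, each by its brightest probe set with 1 symbol. By this reading 4.06% of 13050 genes passed, 1.05% lower and 3.01% higher, and the median over all of them was -0.01. Of the 18 partners tested, 3 fell and 0 rose, with a median of -0.46. Hand2, a basic helix-loop-helix factor of the heart, read 7.48 and 7.94 in stimulated and 8.91 and 8.82 in control cells, a fall of 1.15 ± 0.18 (adjusted p = 0.0360). Hey1, a Notch target expressed in the atria, read 9.00 and 9.62 in stimulated and 10.58 and 10.44 in control cells, a fall of 1.19 ± 0.22 (adjusted p = 0.0471). Gata4, the zinc finger partner of Tbx5, fell by 0.74 ± 0.13 (adjusted p = 0.0460), with 8.59 and 8.71 in stimulated and 9.46 and 9.32 in control cells. Mef2c changed by -0.88 ± 0.19 (adjusted p = 0.0604). Nkx2-5, the homeodomain partner of Tbx5, read 11.36 and 11.57 in stimulated and 11.89 and 12.00 in control cells. Its groups did not overlap, but the change of -0.48 ± 0.14 did not pass (adjusted p = 0.112). With any 1 of the 4 arrays left out, 0 partners passed, the lowest adjusted p being 0.0535 for Hey1, and with no filter only 1 did. All 3 kept a negative change.

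Homeodomain factors other than Shox2 and Irx3 fell in 2 of 9 tested cases and rose in 0 (median -0.15). Meis2, a cofactor of Hox and Pbx proteins, read 8.25 and 8.29 in stimulated and 9.15 and 9.05 in control cells and fell by 0.83 ± 0.13 (adjusted p = 0.0342). Its other probe sets changed less, by -0.47, -0.41 and -0.29. Hopx, a homeodomain protein that does not itself bind DNA, fell by 0.87 ± 0.16 (adjusted p = 0.0471), and Meis1 changed by -0.44 (adjusted p = 0.130). With any 1 array left out neither Meis2 nor Hopx passed, at adjusted p between 0.0689 and 0.204. Of 12 other T-box genes, 10 had a probe set and only Mga, Eomes and Tbx19 were tested. Their changes of 0.30, 0.24 and 0.04 did not pass (adjusted p = 0.318, 0.384 and 0.904). The other Mga probe sets tested changed by -0.16 and 0.26.

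Chamber genes that T-box factors are known to activate or repress moved in both directions. Of 14 tested, 2 rose and 3 fell, with a median of -0.79. Nppa, which Tbx5 activates and Tbx3 represses in the mouse heart, read 12.84 and 12.81 in stimulated and 10.69 and 10.96 in control cells, a rise of 2.00 ± 0.15 (adjusted p = 0.00909). Nppb, the gene beside it that encodes brain natriuretic peptide, rose by 7.13 ± 0.27 (adjusted p = 0.00189). Gja5, connexin 40 of the atrial gap junction and another known Tbx5 target, read 4.52 and 5.09 in stimulated and 6.81 and 7.60 in control cells. It fell by 2.40 ± 0.31 (adjusted p = 0.0268). Scn10a, a voltage-gated sodium channel gene, fell by 1.31 ± 0.23 (adjusted p = 0.0439), and Ryr2, the cardiac calcium release channel, by 0.85 (adjusted p = 0.0496). Without stimulated 1 or stimulated 2 the list had 2 calls, and without control 1 or control 2 it had 1. Nppb was the gene that passed in all 4 of these fits. The other call was Nppa without stimulated 1 and, without stimulated 2, Pln, the calcium pump regulator phospholamban. Of the genes that fell, adjusted p was then 0.0616 to 0.145 for Gja5, 0.0576 to 0.216 for Scn10a and 0.105 to 0.235 for Ryr2. Nppa and Gja5 changed in opposite directions, and Tbx5 and Tbx3 both fell. Whether the changes of these targets are linked to those of Tbx5 and Tbx3 was not tested.

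**Figure D4:**
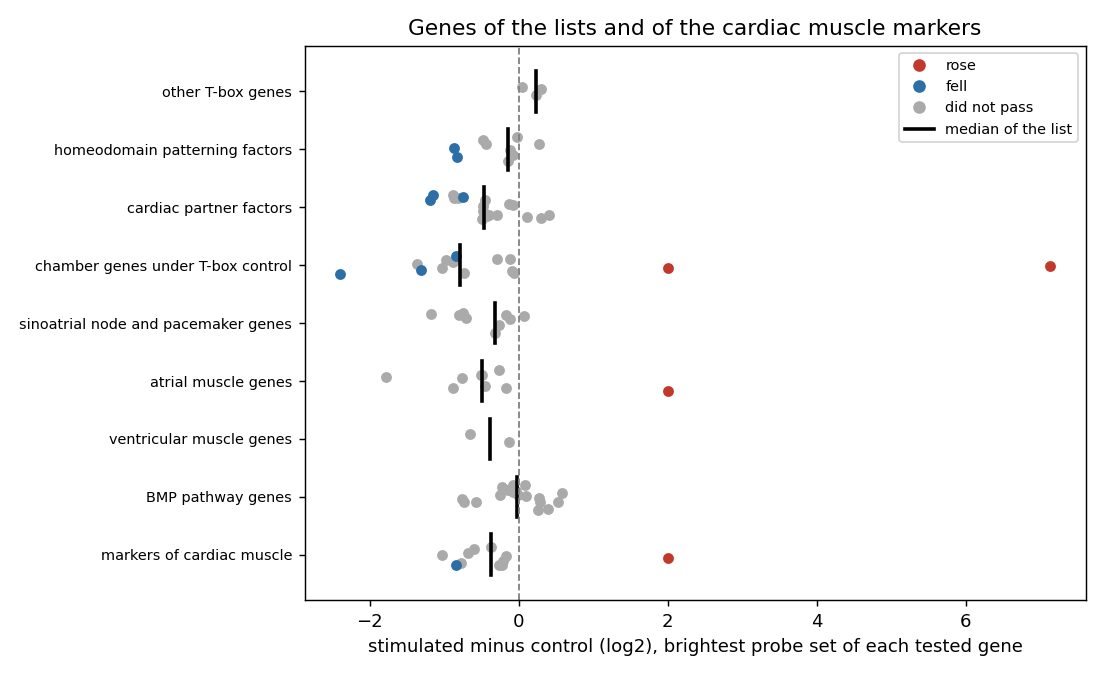
Change (stimulated minus control, log2 scale) of each tested gene in the 8 lists and in the cardiac muscle marker list, by its brightest probe set, with a bar at each median. The medians run from -0.79 for chamber genes to 0.24 for other T-box genes, and the points at 2.00 and 7.13 are Nppa and Nppb.

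Sinus node and pacemaker genes gave 0 calls among 9 tested (median -0.31, all but Kcne1 negative), with the smallest p for Slc8a1, the sodium-calcium exchanger, at -1.18 ± 0.28 (adjusted p = 0.0765). In limma's test at an unadjusted p under 0.05, 4 of these 9 passed, where 24.6% of all 13050 genes did. Cpne5 changed by -0.75 and the T-type calcium channel genes Cacna1g and Cacna1h by -0.71 and -0.80, none passing (adjusted p = 0.0875, 0.133 and 0.202). Isl1, an early regulator of the node, lay below the level for testing. Among atrial muscle genes Nppa alone passed of 9 tested (median -0.49), and 8 of the 9 had a negative change. Without stimulated 2, control 1 or control 2 this list had 0 calls. Sln, the atrial regulator sarcolipin, read 4.94 and 6.46 in stimulated and 7.06 and 7.91 in control cells and, with arrays that far apart, did not pass (-1.78 ± 0.52, adjusted p = 0.111). Kcnj5, a subunit of the acetylcholine-gated potassium channel, changed by -0.88 on its brightest probe set (adjusted p = 0.0691) and by -1.64 on its other. Of the 5 ventricular genes only Myl2 and Myl3 were tested, with changes of -0.65 and -0.13 (adjusted p = 0.148 and 0.595). The other Myl3 probe sets tested changed by -0.67 and -0.09.

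BMP signals induce Tbx2 and Tbx3 in the embryo. Of 18 BMP pathway genes tested, 0 passed in either direction by limma, with a median of -0.02, and 4 of the 18 had an unadjusted p under 0.05, against the same 24.6% of all genes. The smallest p values belonged to Smad1, which relays BMP signals to the nucleus (0.52 ± 0.16, adjusted p = 0.120), and to Bmp10, an atrial ligand (-0.76 ± 0.23, adjusted p = 0.122). Id2, a target of both BMP and Tbx5, changed by -0.73 (adjusted p = 0.199) and Smad4 by 0.58 (adjusted p = 0.206). The other Id2 probe sets tested changed by -0.50 and 0.18.

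Of 11 markers of cardiac muscle, all tested, Ryr2 fell, Nppa rose and the other 9 did not pass. The change was negative for 10 of the 11, with a median of -0.37. The mean level of all 11 was 11.22 and 11.57 on the stimulated arrays, against 11.68 on both control arrays. The rise of Nppa is part of this average, which therefore understates the shift of the other 10. In bulk RNA, fewer muscle cells and less RNA per cell cannot be told apart, and the part of the markers' shift in the falls of Tbx5, Tbx20 and Tbx3 was not tested. Markers of other cell types included 3 of 6 for epicardium, which also uses Tbx18, that reached the level for testing, and 0 of these passed by limma, with 0 at an unadjusted p under 0.05. The epicardial markers Wt1, Aldh1a2 and Msln did not reach it, and the list averaged 4.42 and 4.59 on stimulated and 4.49 and 4.74 on control arrays. For fibroblasts 4 of 8 markers reached it, for smooth muscle 3 of 4, for endothelium 1 of 5 and for leukocytes 2 of 4. Of these only Cd68, a lysosomal protein of macrophages, passed, with a rise of 2.08 ± 0.23 (adjusted p = 0.0231, and 0.0686 to 0.0800 with 1 array left out), while the defining leukocyte gene Ptprc was not tested, at 3.23 and 3.19 in stimulated and 3.04 and 3.51 in control cells.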

How the data were processed

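HL-1 cells were profiled on 4 arrays, 2 of stimulated and 2 of control samples. Per the submitters' processing notes the deposited log2 values were made by the authors with RMA, a method of background correction, quantile normalization and summary per probe set. The sources used here do not give its version or settings, and no scanner files were used. The number of arrays limits the precision.

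Probe sets were named from GEO's platform annotation: 34945 of 45037 had 1 symbol, 932 several and 9160 none. In a RefSeq table (GRCm38.p6) 34741 were found and 0 were renamed. The 64 manufacturer's controls were left out. Probe sets whose mean over the 4 arrays was at or above the 40th percentile entered a two-sided limma fit (version 3.58.1, R 4.3.3; lmFit, eBayes) of stimulated minus control, without a replicate block, with Benjamini-Hochberg adjustment over all 27000. The script was tested on simulated data. Replicate numbers of the stimulated samples come from their titles. A protocol text gives 1 control a number and the other was numbered by accession order, so the numbers were not taken to pair the samples. Array medians were 4.96 to 5.01. Arrays correlated across probe sets at 0.989 within the stimulated and 0.991 within the control group, and at 0.969 to 0.975 between groups.

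Named were every probe set of the 7 genes, the 4 genes with the smallest p in each of 8 lists, and the 2 genes nearest in pattern to each factor. Med13l, Rbm19, Irx5 and genes given as markers or examples outside that rule were chosen after their values were seen. The 7 genes and the lists were chosen with earlier results of these data known. Alternatives were other filters, 1 probe set per gene, median centring, another variance model, the replicate block and leaving out each array.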

Additional observations from a re-analysis of the deposited data

How the results depend on the processing

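With any 1 array left out, 7 to 117 probe sets passed in all (7 to 111 higher and 0 to 28 lower), against 1039 (666 and 373) from 4 arrays, and member probe sets passed in 0 of the 4 fits (0 to 0). At an unadjusted p under 0.05, 3904 to 5917 passed. The 5 falls of Tbx5, Tbx20 and Tbx3 passed with no filter, with arrays centred on their medians, with a trended and robust variance and with the replicate block. With the 60th percentile filter 3 passed, because both Tbx3 probe sets were not tested, and 591 of all probe sets were lower. With 1 probe set per gene 2 of 6 passed, Tbx5 and Tbx3, and 214 genes were lower. There Tbx20, by its brightest probe set, had an adjusted p of 0.0608. With the mean of a gene's probe sets, chosen after seeing the data, Tbx20 (-1.39), Tbx5 (-1.15) and Tbx3 (-0.62) passed. The trended variance gave 1566 calls, 618 of them lower. Over the 27000 tested probe sets, the difference between replicates 1 and 2 correlated at 0.31 between the stimulated and control groups. The replicate block gave 2041 calls, 1194 higher and 847 lower, and changed no call among the 14 probe sets. With this block 3 sinus node genes (Slc8a1, Cacna1h and Cpne5), 3 atrial muscle genes (Nppa, Sln and Kcnj5) and 1 BMP pathway gene (Id2) passed, against 0, 1 and 0 without it. The cause of these shifts in count was not tested. With no filter 1 partner factor, 1 homeodomain factor and 3 chamber genes passed. Median centring gave 1 homeodomain factor, and the mean of probe sets gave 1 homeodomain factor and 2 atrial genes. No probe set of the 7 genes passed upward under any alternative. Probe sets near the filter level, among them 3 of Tbx3, 1 of Shox2 and that of Tbx2, limit what the array can show.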
